A study of Mus musculus with 8 samples.

Results

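The Xcr1+ Clec9a+ conventional dendritic cells, called cDC1 below, were examined in the stromal vascular fraction (SVF) of inguinal white adipose tissue (iWAT) from mice fed ad libitum (Ad-Lib) or only within 2 nightly windows (TAN feeding). They were chosen by UMI counts, the numbers of distinct transcript molecules read per cell. A cell was a member when its Xcr1 and Clec9a UMIs summed to 2 or more, its C1qa, C1qb and C1qc UMIs summed to 2 or fewer, and it held no UMI of Cd3e, Cd79a, Pdgfra or Pecam1, which mark T cells, B cells, adipocyte progenitors and endothelium. Of 44427 barcodes, 36370 passed the limits of 700 to 30000 UMIs, 200 to 8000 genes and at most 10% mitochondrial UMIs. Of these, 177 were cDC1, or 0.487%.

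The 8 libraries, 4 per feeding group, were 10x 3' libraries of total SVF from mice labelled as C57BL/6 and 8 weeks old, with Ad-Lib or TAN as the stated treatment. The fourth inguinal pad was digested with Collagenase II, so the cells are those that survived digestion, and mature adipocytes were not sampled. No genetic change or drug was part of either group, and the labels do not tie libraries to mice. The study describes 4 Ad-Lib and 4 TAN mice but also speaks of 4 samples in all, so how libraries map to mice cannot be settled here, and it describes fat pads from which lymph nodes were left out. It speaks of older males that had been on their feeding schedule for months, with TAN food intake slightly below that of Ad-Lib mice. The age in the labels therefore cannot be settled here. Total UMIs ran from 25320800 to 37140950 per library.

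cDC1 take up material from dead cells and present it on MHC class I to CD8 T cells, a process called cross-presentation. Clec9a binds the exposed actin of dead cells, and Xcr1 is the receptor for a chemokine made by CD8 T cells and natural killer cells. The lineage needs Irf8 and Batf3, grows under Flt3 ligand, and makes the chemokines Cxcl9 and Cxcl10 that draw T cells carrying Cxcr3. In tissues cDC1 are a small population beside the cDC2, which are marked in mice by Sirpa and, in part, by Cd209a. Both leave for lymph nodes after switching on Ccr7 and Fscn1.

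Before the results, 4 libraries stood apart from the others. In Ad-Lib 3, TAN 4, TAN 6 and TAN 8, 12.8% to 15.9% of cells held a UMI of Cd79a, a B cell gene, against 0.700% to 3.89% in Ad-Lib 1, Ad-Lib 5, Ad-Lib 7 and TAN 2. Cells with a UMI of the T cell gene Cd3e made up 7.58% to 22.0% and 1.85% to 4.40% of the same sets. The first set held 20 to 124 Ccr7+ Fscn1+ cells per library and the second held 2 to 3. These libraries are called B-cell-rich below. They include 3 of the 4 TAN libraries and 1 of the 4 Ad-Lib libraries, so the feeding group and this difference are partly confounded. Any 2 libraries shared 5 to 16 cell barcodes, and 0 barcodes were members in more than 1 library.

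Most members differed from other dendritic cells in genes that did not choose them, but most of those at the threshold of the rule did not. Of 234 cells with 2 or more Xcr1 and Clec9a UMIs, 9 exceeded the C1q limit, 52 held a UMI of a lineage gene, and 4 failed on both counts. The lineage UMIs belonged to Pecam1 in 25 cells, Cd3e in 22, Pdgfra in 8 and Cd79a in 5. Both Xcr1 and Clec9a were detected in 143 members, Clec9a alone in 23 and Xcr1 alone in 11. The median sum of the Xcr1 and Clec9a UMIs was 7 and the highest was 26. Members had a median of 13509 UMIs, against 5029 over all cells kept, and a median mitochondrial share of 1.90% against 2.51%. A doublet score marked 0 members, and 1351 of all cells (3.71%).

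A list of 18 cDC1 identity genes not used by the rule graded with the Xcr1 and Clec9a sum. Depth differed as well, with median UMIs of 14492, 11480, 8982.5 and 9153.5 at sums of 4 or more, 3, 2 and 1. Its part in the numbers of genes detected was not tested. The 134 members with a sum of 4 or more had a median of 15 of the 18 genes. The 19 members with a sum of 3 had a median of 11. The 24 members with a sum of 2, just inside the threshold, had a median of 5, close to the 4 of the 64 cells with a sum of 1, just outside it. At least 9 identity genes were detected in 133 of 134, 14 of 19, 5 of 24 and 5 of 64 of these cells, in that order. Irf8 was found in 100% of members with a sum of 4 or more, in 66.7% of those with a sum of 2 and in 46.9% of the cells with a sum of 1. The cDC1 label therefore rests on the members with 3 or more UMIs, and 19 of the 24 members at the threshold carried fewer than 9 identity genes. The 52 cells turned away for a lineage UMI had a median of 13 identity genes, and 37 of them held at least 9.

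**Figure D1:**
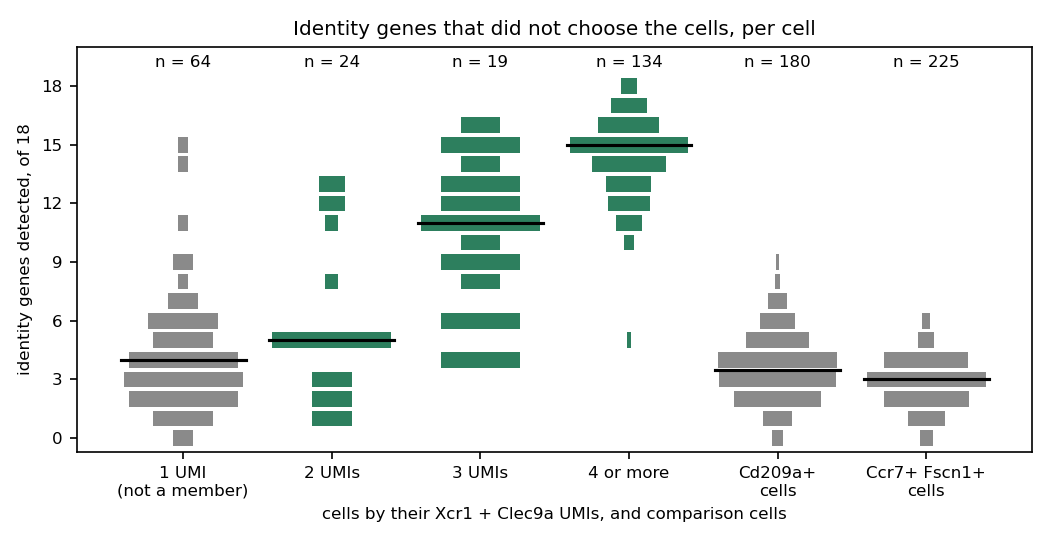
Number of identity genes detected per cell, of 18 genes that did not choose the cells (y axis), for cells grouped by their Xcr1 and Clec9a UMIs and for the comparison cells (x axis). Bar width is the number of cells at that value, scaled within each group, and black lines are medians: 15 genes in the 134 members with 4 or more UMIs and 5 in the 24 members with 2.

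The pan-dendritic genes of the label were present. Levels below are in CPM, the UMIs of a gene per 1000000 UMIs summed over all cells of a type in a library. Flt3, the receptor for the growth factor that sustains conventional dendritic cells, was detected in 80.8% of cDC1, with a lowest, median and highest library level of 83.7, 137 and 264 CPM. Zbtb46, a transcription factor restricted among immune cells to conventional dendritic cells, was detected in 50.8%, at 31.4, 52.1 and 78.0 CPM. Xcr1, which chose the cells, stood at 124, 306 and 532 CPM and Clec9a at 171, 286 and 347 CPM. Xcr1 lies on chromosome 9 at chr9:123852315-123862029 on the minus strand, and Clec9a on chromosome 6 at chr6:129408862-129424763 on the plus strand (GRCm38, GENCODE M21).

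Transcripts of other cell types were not all absent. The list of Cd209a+ dendritic cells summed to 380 to 1450 CPM in cDC1 against 3477 to 5123 CPM in Cd209a+ cells, and 14 members held a Cd209a UMI, up to 27 in a cell. The macrophage list summed to 41.4 to 173 CPM in cDC1 against 2109 to 4494 CPM in all other cells, with Fcgr1 at 0. The adipocyte progenitor list summed to 100.4 to 304 CPM against 10174 to 34722 CPM, and Gsn, which encodes gelsolin and is widely expressed, gave 131 CPM of it. The monocyte list summed to 105 to 475 CPM with Chil3 and Vcan at 0. It was at 475 CPM in Ad-Lib 3, 337 to 388 CPM in the TAN libraries and 105 to 119 CPM in Ad-Lib 1, 5 and 7. The endothelial list summed to 3.39 to 27.5 CPM with Egfl7, Tie1 and Emcn at 0. The adipocyte list summed to 11.8 to 96.1 CPM with Plin1 at 0, and the mast cell list to 0 to 3.39 CPM with 4 of 5 genes at 0. The natural killer list summed to 0 to 156 CPM with Ncr1 at 0, and the plasmacytoid list to 23.7 to 481 CPM with 9 cells holding a Siglech UMI. The plasmacytoid list was at 148 to 481 CPM in the B-cell-rich libraries, which held all 9 cells, and at 23.7 to 62.8 CPM in the others.

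Of the B cell list, at 142 to 217 CPM, Ms4a1 and Fcmr were at 0, and Ighm gave 165 CPM in 78.5% of members. The T cell list summed to 310 CPM in Ad-Lib 7, 115 in Ad-Lib 5, 47.5 in Ad-Lib 1 and 15.0 CPM or less in the other 5 libraries. In those 3 libraries it rested on 4 members with 14, 22, 34 and 21 T cell UMIs and no Cd3e UMI, and no other member held 10 or more. Of these, 1 was in Ad-Lib 1, 1 in Ad-Lib 5 and 2 in Ad-Lib 7.

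The cDC1 were next set beside the 180 Cd209a+ cells, chosen by 2 or more Cd209a UMIs with the same limits on other lineages. Since both sets were chosen by marker genes, what follows describes the chosen cells and is no independent evidence that they differ. Counts were summed per type and library and fitted with edgeR's quasi-likelihood test with the library as a block, in 4380 genes, leaving out the genes of the gates. Calls needed a 2-fold or larger difference and an adjusted p under 0.05 (Benjamini-Hochberg). Of all genes tested, 280 were higher in cDC1 (6.39%) and 377 were lower (8.61%). Fold changes are log2 values of cDC1 over Cd209a+ cells with their standard error (SE).

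Of the 18 identity genes, 17 were tested and 16 were higher in cDC1, with a median of 3.84. Irf8, the transcription factor on which the lineage depends, was at 1229, 1664 and 2093 CPM (lowest, median and highest library) in cDC1 and at 0, 101 and 270 CPM in Cd209a+ cells (4.10, SE 0.38). No library of Cd209a+ cells reached the lowest cDC1 library. Id2, an inhibitor of E-protein transcription factors, was at 532, 712 and 913 CPM against 8.44, 76.1 and 95.5 CPM (3.53, SE 0.19). Batf3 was the tested identity gene that was not called, at 136, 178 and 243 CPM against 86.3, 109 and 174 CPM (0.70, SE 0.15), and its ranges overlapped.

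Wdfy4, needed for cross-presentation of cell-associated antigen, was at 377 to 622 CPM in cDC1 and 59.1 to 133 CPM in Cd209a+ cells (2.66, SE 0.14). Rab7b, a small GTPase of late endosomes, was at 212 to 451 CPM against 0 to 13.5 CPM (6.20, SE 0.29). Ppt1, a lysosomal thioesterase, was at 425 to 1032 CPM against 26.5 to 42.2 CPM (4.54, SE 0.15), a 23.2-fold difference with no overlap. Naaa, a lysosomal amidase, was at 894 to 1565 CPM against 150 to 408 CPM (2.37, SE 0.12). Tlr3, the endosomal sensor of double-stranded RNA, was detected in 67.8% of cDC1, at 83.8 to 203 CPM, and in 0.556% of Cd209a+ cells. Gcsam was detected in 63.3% of cDC1 and in 0% of the 180 Cd209a+ cells.

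Cadm1, an adhesion molecule used to identify cDC1 across species, was at 124 to 271 CPM against 0 to 45.1 CPM (4.07, SE 0.32). Cxcr3 was at 41.4 to 130 CPM against 0 to 9.51 CPM (3.84, SE 0.35), and Kit, the stem cell factor receptor, at 28.2 to 137 CPM against 0 to 14.3 CPM (4.70, SE 0.38). Itgae, which encodes CD103 and marks cDC1 in many tissues, was detected in 23 of 177 members, at 0 to 46.8 CPM, and did not pass the filter on low counts. Cd8a, the classical mark of cDC1 in lymphoid organs, was detected in 59 members and Treml4 in 52. Cd8a and Itgae were found together in 14 cells, and Cd8a and Treml4 in 25.

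**Figure D2:**
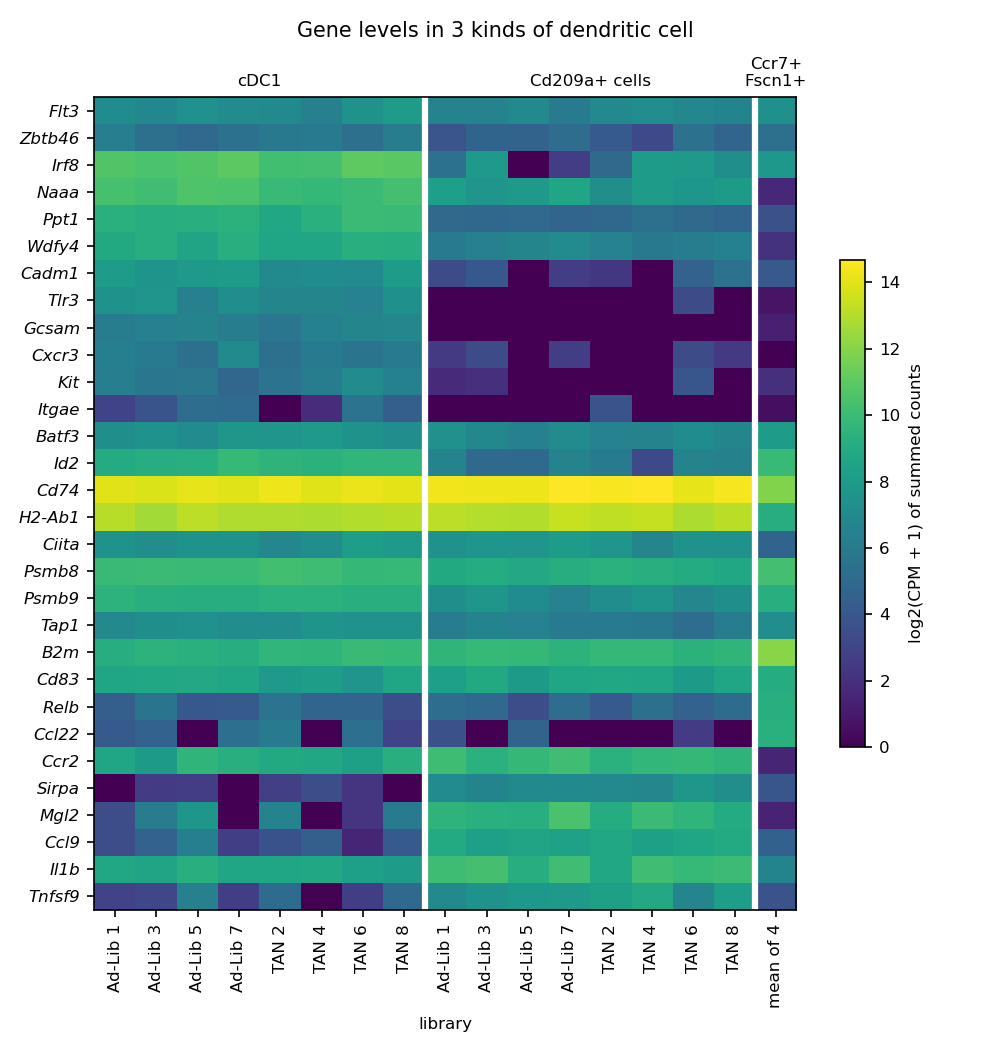
Levels of 30 genes (rows) as log2(CPM + 1) of summed counts in cDC1 and Cd209a+ cells of each library and as the mean of 4 libraries for Ccr7+ Fscn1+ cells (columns). Irf8, Ppt1, Wdfy4, Tlr3 and Gcsam separate cDC1 from Cd209a+ cells in every library, Cd74 and H2-Ab1 do not, and Relb and Ccl22 are high in the Ccr7+ Fscn1+ cells.

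Antigen presentation by MHC class II and class I differed in how it set the types apart. Of 14 class II genes tested, 0 were higher and 2 were lower in cDC1, with a median of -0.18. Cd74, the invariant chain, was at 14611 to 20111 CPM in cDC1 and 17921 to 26255 CPM in Cd209a+ cells (-0.27, SE 0.09), and H2-Ab1 at 6395 to 9387 against 7574 to 11391 CPM (-0.10, SE 0.09). The ranges of both overlapped. The class II genes called lower were the proteases Ctss (-1.10, SE 0.11) and Lgmn (-2.31, SE 0.42), which cut invariant chain and antigen in endosomes. Of 18 class I and cross-presentation genes, 8 were higher and 1 was lower, with a median of 0.46.

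The class I genes that were higher belonged mainly to the production and transport of peptides. The immunoproteasome subunits Psmb9 (565 to 719 against 90.2 to 215 CPM, 2.15, SE 0.13) and Psmb8 (872 to 1217 against 424 to 661 CPM, 1.01, SE 0.08) did not overlap between types. The proteasome activators Psme1 (1.43, SE 0.11) and Psme2 (1.05, SE 0.13), the peptide transporter genes Tap1 (1.27, SE 0.18) and Tap2 (1.35, SE 0.18), Rab43 (1.19, SE 0.13) and Wdfy4 were also called. H2-K1 (-0.26, SE 0.11) and B2m (-0.06, SE 0.11), which form the class I molecule itself, were not. Cybb, the NADPH oxidase subunit, was lower, at 0 to 48.8 CPM against 233 to 527 CPM (-3.41, SE 0.28).

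Among sensors, 2 of 7 tested genes were higher, Tlr3 and Tlr11 (1.58, SE 0.37), and 0 were lower. Of 13 cytokine, chemokine and costimulation genes, 3 were higher and 6 were lower. Cd86, a ligand for CD28 on T cells, was higher, at 99.5 to 163 CPM against 12.5 to 67.5 CPM (2.05, SE 0.23), as were Cxcl9 and Cxcl16. The inflammatory cytokine Il1b was lower, at 268 to 602 CPM against 445 to 1285 CPM (-1.14, SE 0.18), and Tnfsf9 (-3.56, SE 0.38), Tnf (-2.81, SE 0.39), Ccl3, Il6 and Cxcl10 were lower as well. Of 16 immediate early and heat shock genes, 7 were lower and 0 higher, with a median of -0.93. They included Jun (-1.73, SE 0.12), Atf3 (-1.48, SE 0.13) and Egr1 (-1.18, SE 0.13). These genes also respond to tissue digestion, and their part in this difference was not tested.

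The 10 genes with the smallest adjusted p that were higher in cDC1 were Cst3, Ppt1, Ifi205, Rab7b, Naaa, Wdfy4, Id2, Cd24a, Rtl8a and Ncoa7. Cst3, which encodes the protease inhibitor cystatin C, was at 18212, 19000 and 22173 CPM against 3164, 3793 and 5128 CPM (2.44, SE 0.07). The 10 that were lower were S100a6, Fcer1g, Zeb2, Ctsh, Sirpa, Ifitm2, Ms4a6c, Jun, Tyrobp and Ccl9. Zeb2, a transcription factor that holds the alternative cDC2 and monocyte fates, was at 7.49 to 89.0 CPM against 354 to 473 CPM (-3.73, SE 0.23). Sirpa was at 0 to 10.5 CPM against 97.9 to 219 CPM (-4.85, SE 0.33) and the chemokine Ccl9 at 1.87 to 78.5 CPM against 309 to 510 CPM (-4.28, SE 0.30). Fcer1g (-2.04) and Tyrobp (-1.21) encode adaptors of activating receptors. Of 9 tested genes in the list of Cd209a+ cells, 8 were lower in cDC1.

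In lipid handling, 2 of 11 tested genes were higher and 3 lower. Cd36, a scavenger receptor that takes up fatty acids and dead cells, was at 65.0 to 188 CPM in cDC1 against 0 to 20.8 CPM (3.85, SE 0.33). Plin2, which coats lipid droplets, was at 89.0 to 169 CPM against 22.1 to 64.9 CPM (1.52, SE 0.18). The hormone receptors at the centre of the study were barely detected. Insr, the insulin receptor, had a UMI in 12 of 177 members (6.78%), at 0 to 11.8 CPM per library. Lepr, the leptin receptor, had a UMI in none of the 177 members, a count that sets no limit on cells that express the gene. Of the chemotaxis and growth factor receptor list, 2 of 12 tested genes were higher and 4 were lower. Ccr2, which brings cells from blood to inflamed tissue, was at 257 to 775 CPM against 663 to 1145 CPM (-0.77, SE 0.14) and was not called. Csf1r, the receptor for a macrophage growth factor, was lower (-4.06, SE 0.48). The Cd209a+ cells held 266 to 725 CPM of the macrophage list, of which 5 of 6 tested genes were lower in cDC1, and 53.0 to 1102 CPM of the plasmacytoid list, of which 4 of 7 were. The part of such transcripts in the comparison was not tested.

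The comparison with the 225 Ccr7+ Fscn1+ cells, dendritic cells that carry the migratory genes, was possible in 4 libraries only, Ad-Lib 3, TAN 4, TAN 6 and TAN 8, which are the B-cell-rich ones. Of 4935 genes tested in the same way, 897 were higher in cDC1 (18.2%) and 943 lower (19.1%). Of 17 tested identity genes, 15 were higher, with a median of 6.04. Id2, at 789 to 1247 CPM in the Ccr7+ Fscn1+ cells (-0.57, SE 0.14), and Batf3, at 178 to 328 CPM (-0.65, SE 0.18), were the other two and were not called. Naaa was at 0 to 4.89 CPM in the Ccr7+ Fscn1+ cells (8.71, SE 0.31), Wdfy4 at 0 to 12.2 CPM (7.07, SE 0.35) and Ppt1 at 5.92 to 17.9 CPM (6.04, SE 0.24).

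Of 16 maturation genes tested, 15 were lower in cDC1 and 0 higher, with a median of -4.56. Ccl22, a chemokine for regulatory T cells, was at 483 to 841 CPM in Ccr7+ Fscn1+ cells and at 0 to 65.0 CPM over the 8 cDC1 libraries (-5.25, SE 0.30). Relb, a transcription factor of the noncanonical NF-kB pathway, was at 521 to 678 CPM against 10.3 to 48.8 CPM (-4.52, SE 0.24). Ccl5 was the cytokine that differed most, at 8075 to 32518 CPM against 0 to 244 CPM (-8.48, SE 0.39). Cd83 was the exception that was not called (-0.90, SE 0.15). Ccr7 itself had a UMI in 5 of the 177 cDC1.

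MHC class II genes were higher in cDC1 than in the Ccr7+ Fscn1+ cells, 11 of 15 tested with 2 lower. H2-Ab1 was at 252 to 895 CPM in the latter (3.76, SE 0.19). The class I list went both ways, with 4 of 20 higher and 7 lower. B2m was at 3840 to 4900 CPM in Ccr7+ Fscn1+ cells against 556 to 951 CPM over the 8 cDC1 libraries (-2.53, SE 0.12), and H2-K1 at 2798 to 3312 against 514 to 987 CPM (-2.14, SE 0.13). The immunoproteasome and transporter genes Psmb9 (-0.14, SE 0.15), Tap1 (0.15, SE 0.18) and Tap2 (-0.10, SE 0.20) were not called. Immediate early genes were higher in cDC1 in 8 of 15 tested and lower in 0, and cell cycle genes in 9 of 12 and 0.

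The 10 genes with the smallest adjusted p that were higher in cDC1 were Naaa, Ckb, Ppt1, Alox5ap, Plbd1, Ccr2, Gm2a, Wdfy4, H2-Ab1 and H2-DMb1. Ccr2 was at 0 to 2.96 CPM in Ccr7+ Fscn1+ cells (7.15, SE 0.34) and Alox5ap, which serves leukotriene synthesis, at 4.66 to 11.9 CPM (6.62, SE 0.27). The 10 that were lower were H2-M2, Apol7c, Fabp5, Tmem123, Samsn1, Epsti1, AW112010, Tmem176a, Cd63 and Zmynd15. H2-M2, a nonclassical class I gene, was at 967 to 1410 CPM in Ccr7+ Fscn1+ cells and had a UMI in 3 of 177 cDC1. Fabp5, a fatty acid binding protein, was at 850 to 1767 CPM against 0 to 20.9 CPM (-7.00, SE 0.27).

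**Figure D3:**
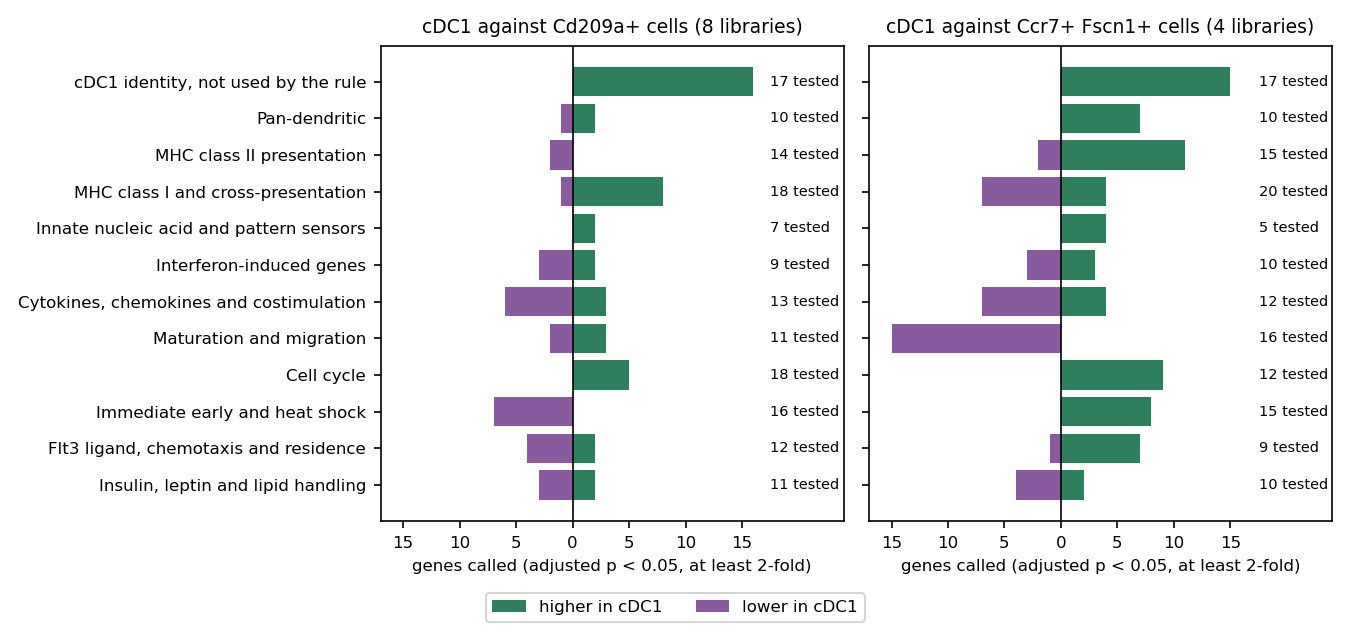
Number of genes of each list called higher (green, to the right) or lower (purple, to the left) in cDC1 than in Cd209a+ cells (8 libraries) and than in Ccr7+ Fscn1+ cells (4 libraries), with the number of genes tested. Class II genes are not higher than in Cd209a+ cells and are mostly higher than in Ccr7+ Fscn1+ cells, while 15 of 16 maturation genes are lower than in the latter.

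The share of cDC1 among all cells was compared between feeding groups over libraries. The Ad-Lib libraries 1, 3, 5 and 7 held 24, 27, 11 and 14 members among 5144, 4892, 3798 and 3717 cells. The TAN libraries 2, 4, 6 and 8 held 12, 26, 42 and 21 among 4318, 4926, 5654 and 3921. The shares, with exact Clopper-Pearson 95% intervals that cover counting error only, were 0.467% (0.299 to 0.693), 0.552% (0.364 to 0.802), 0.290% (0.145 to 0.518) and 0.377% (0.206 to 0.631) under Ad-Lib. Under TAN they were 0.278% (0.144 to 0.485), 0.528% (0.345 to 0.772), 0.743% (0.536 to 1.00) and 0.536% (0.332 to 0.818).

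The groups overlapped, with TAN 2 the lowest of all and TAN 6 the highest. The mean was 0.421% ± 0.113 in Ad-Lib and 0.521% ± 0.190 in TAN (SD, n = 4 each), and the difference of 0.0998 percentage points did not pass a two-sided exact permutation test (p = 0.457, Benjamini-Hochberg adjusted over 4 comparisons 0.457). The B-cell-rich libraries held 0.528% to 0.743% cDC1 and the others 0.278% to 0.467%, which do not overlap. Without the 4 B-cell-rich libraries the difference turned to -0.0997 percentage points, a value with no replicate on the TAN side, where only TAN 2 was left. Among cells with no Cd3e or Cd79a UMI, cDC1 averaged 0.473% ± 0.178 under Ad-Lib and 0.726% ± 0.359 under TAN feeding (SD, 4 libraries each), a difference of 0.252 percentage points (two-sided exact permutation p = 0.314). With that denominator the B-cell-rich libraries held 0.694% to 1.18% and the others 0.303% to 0.479%, still without overlap.

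As a share of cDC1 plus Cd209a+ cells, cDC1 made up 37.5%, 46.6%, 34.4% and 45.2% in Ad-Lib 1, 3, 5 and 7 and 36.4%, 68.4%, 68.9% and 52.5% in TAN 2, 4, 6 and 8. The means were 40.9% ± 5.89 and 56.5% ± 15.5 (SD, n = 4 each), a difference of 15.6 percentage points (two-sided exact permutation p = 0.143, adjusted 0.286). Of the TAN libraries, 3 were above every Ad-Lib library and TAN 2 was not. The other part of this ratio, Cd209a+ cells, averaged 0.605% ± 0.136 of all cells under Ad-Lib and 0.388% ± 0.119 under TAN feeding (SD, n = 4 each; two-sided exact permutation p = 0.0857, not adjusted). Without TAN 2 the difference was 22.4 percentage points (exact permutation p = 0.0286, the smallest that 3 against 4 libraries can give), and without the B-cell-rich libraries it was -2.65, again with TAN 2 alone.

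**Figure D4:**
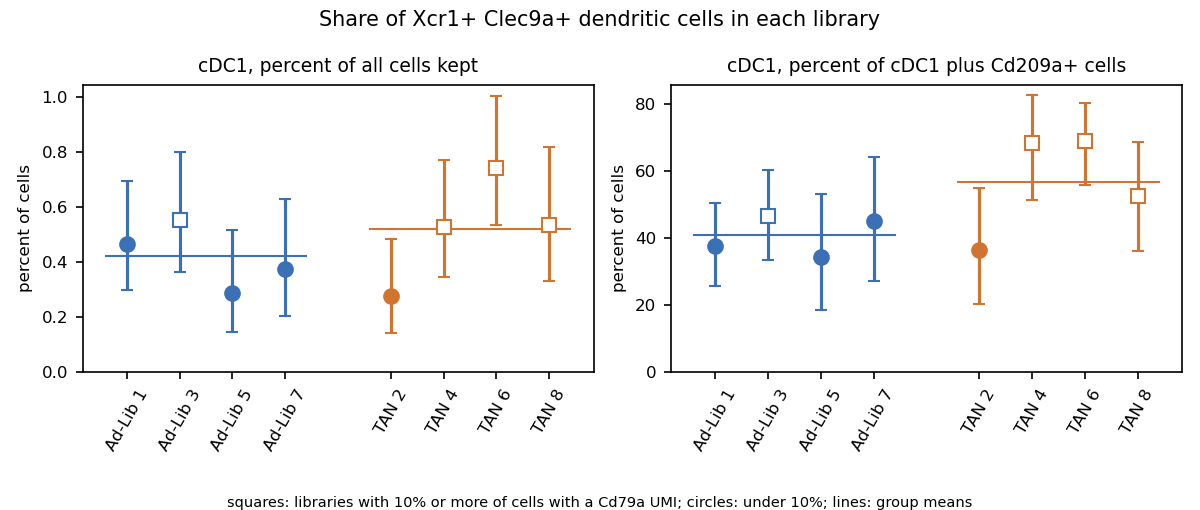
Share of cDC1 in percent of all cells kept (left) and of cDC1 plus Cd209a+ cells (right) in each of the 8 libraries, with 95% Clopper-Pearson intervals as bars and group means as horizontal lines. Open squares are the B-cell-rich libraries, which hold all 4 of the highest values in both panels, and filled circles the others.

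Few cDC1 genes passed the threshold between the feeding groups. Summed cDC1 counts of the 8 libraries were compared between TAN and Ad-Lib with edgeR's quasi-likelihood test in 3006 genes, at an adjusted p under 0.05 and at least 1.5-fold. The test called 3 genes (0.0998%), 2 higher and 1 lower under TAN, and 249 genes had an unadjusted p under 0.05. The libraries held 11 to 42 cDC1 each. Fold changes below are log2 values of TAN over Ad-Lib.

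The chemokine Cxcl9 (chr5:92321347-92328079), which is induced by interferon-gamma and recruits T cells through Cxcr3, was at 20.3, 144, 20.9 and 5.64 CPM in Ad-Lib 1, 3, 5 and 7 and at 632, 452, 614 and 148 CPM in TAN 2, 4, 6 and 8. Every TAN library was above every Ad-Lib library, although TAN 8 and Ad-Lib 3 lay close together. The group means were 47.7 ± 64.5 and 462 ± 224 CPM (SD, n = 4 each; log2 3.04, SE 0.55, edgeR adjusted p = 0.0492). A Cxcl9 UMI was found in 8 of 76 Ad-Lib members (10.5%) and 36 of 101 TAN members (35.6%), of which 22 were in TAN 6. By library these shares overlapped, at 4.17% to 18.5% in Ad-Lib and 16.7% to 52.4% in TAN libraries. As a background for free RNA, 2.20% of 3134 cells with a Cd79a UMI and no Cd3e UMI had one, at a median depth of 3530 UMIs against 13509 in cDC1. A few cells carried much of the signal, since the top cell of TAN 2 held 90 of that library's 107 Cxcl9 UMIs and the top cell of TAN 6 held 110 of 328.

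Cxcl16 (chr11:70453983-70459984), the ligand of Cxcr6 on T cells and innate lymphoid cells, was at 40.7, 74.5, 73.3 and 73.3 CPM in Ad-Lib and at 154, 128, 185 and 144 CPM in TAN libraries, in the same order. The groups did not overlap, with means of 65.4 ± 16.5 and 153 ± 24.1 CPM (SD, n = 4 each; log2 1.30, SE 0.23, edgeR adjusted p = 0.0437). It was detected in 33 of 76 and 68 of 101 members, and the top cell held 13 of all 284 Cxcl16 UMIs. No background for free RNA was taken for this gene.

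Dusp1 (chr17:26505590-26562128), a phosphatase that shuts off MAP kinases and belongs to the immediate early and glucocorticoid-responsive lists, was at 831, 780, 817 and 857 CPM in Ad-Lib and 390, 549, 367 and 474 CPM in TAN libraries. Again the groups did not overlap, with means of 821 ± 31.9 and 445 ± 83.2 CPM (SD, n = 4 each; log2 -0.82, SE 0.14, edgeR adjusted p = 0.0437). It was detected in 71 of 76 and 72 of 101 members.

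The other cells of the same libraries went partly the same way. Over all other cells Dusp1 averaged 1275 CPM under Ad-Lib feeding and 827 CPM under TAN feeding. Cxcl16 averaged 28.1 and 32.9 CPM, and Cxcl9 115 and 70.4 CPM. In Cd209a+ cells, Cxcl9 was at 0, 34.7, 3.45 and 0 CPM in Ad-Lib and 0, 0, 4.75 and 27.04 CPM in TAN libraries. Cxcl16 was at 6.95, 63.2, 13.8 and 37.1 CPM and 29.1, 33.7, 28.5 and 45.1 CPM, and Dusp1 at 1728, 872, 1015 and 1670 CPM and 1181, 1139, 1146 and 1546 CPM. The difference of the TAN change between cDC1 and Cd209a+ cells was tested in 4380 genes, and edgeR called 0 of them, with 244 at an unadjusted p under 0.05. DESeq2 called 0 as well, with 42 at that level. The interaction was 3.35 (SE 1.10, adjusted p = 0.864) for Cxcl9, 1.11 (SE 0.53, adjusted p = 0.865) for Cxcl16 and -0.78 (SE 0.21, adjusted p = 0.650) for Dusp1, so none of these changes was shown to be particular to cDC1.

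The 3 genes kept their direction under every alternative run, but the calls depended on single libraries. Each was lost when Ad-Lib 1, Ad-Lib 5, Ad-Lib 7 or TAN 6 was left out, where adjusted p ran from 0.129 to 0.301, and Cxcl16 (0.0616) and Dusp1 (0.0783) were lost without TAN 8. Over all 8 ways of leaving out a library, log2 changes stayed at 2.76 to 4.86 for Cxcl9, 1.14 to 1.44 for Cxcl16 and -0.94 to -0.71 for Dusp1. Among members with 3 or more Xcr1 and Clec9a UMIs, Cxcl16 kept its call (1.57, adjusted p = 0.0146), while Cxcl9 (2.91, adjusted p = 0.0969) and Dusp1 (-0.75, adjusted p = 0.0995) lost theirs. Ad-Lib 5 held 8 such members and dropped out of that fit, and leaving it out alone also ended the calls of Cxcl9 (2.84, edgeR adjusted p = 0.171) and Dusp1 (-0.82, edgeR adjusted p = 0.129), so the stricter gate and the missing library cannot be told apart. With the B cell share as a covariate, the changes were 2.66 for Cxcl9, 1.14 for Cxcl16 and -0.78 for Dusp1, with adjusted p of 0.278, 0.452 and 0.345. Among the B-cell-rich libraries alone, where Ad-Lib 3 is the only Ad-Lib library, they were 1.56, 1.07 and -0.74. Without those libraries, where TAN 2 is the only TAN library, they were 5.36, 1.51 and -0.93, and Cxcl9 and Dusp1 were called with the lone library assumed to vary like the others. Cxcl9 also lost its call with DESeq2 (adjusted p = 0.257), with DESeq2's size factors (0.0512) and at a mitochondrial limit of 20% (0.0514). The part of the B cell content in these changes was not tested further.

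With few calls, the genes next in order are given as values. Nedd4, a ubiquitin ligase, was at 23.7, 23.1, 5.24 and 5.64 CPM in Ad-Lib and 47.3, 68.0, 152 and 61.8 CPM in TAN libraries (log2 2.43, edgeR adjusted p = 0.0509). Clec4b1, a C-type lectin, was at 98.3, 82.2, 131 and 90.2 CPM and 23.6, 39.2, 15.0 and 48.1 CPM (log2 -1.63, edgeR adjusted p = 0.0509). Neither passed the threshold with edgeR, and both passed with DESeq2 (adjusted p = 0.00818 for Nedd4 and 0.0268 for Clec4b1). For neither gene did the libraries overlap between groups. Like the called genes, they were picked for a small p, so the lack of overlap adds no further evidence. Cd8a, named here after its values were seen, was at 3.39, 69.3, 10.5 and 11.3 CPM and 29.5, 73.2, 251 and 127 CPM (log2 2.22, SE 0.61, edgeR adjusted p = 0.310). Its ranges overlapped through Ad-Lib 3. The 4 B-cell-rich libraries held the 4 highest Cd8a levels and the other 4 the lowest, without overlap, so the feeding change cannot be told apart from that split. Of the 59 members with a Cd8a UMI, 31 also had a Cxcl9 UMI, against 44 of all 177 members. TAN 6 alone held 27 of the 59 and 22 of the 44. The part of the library in this co-detection was not tested.

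**Figure D5:**
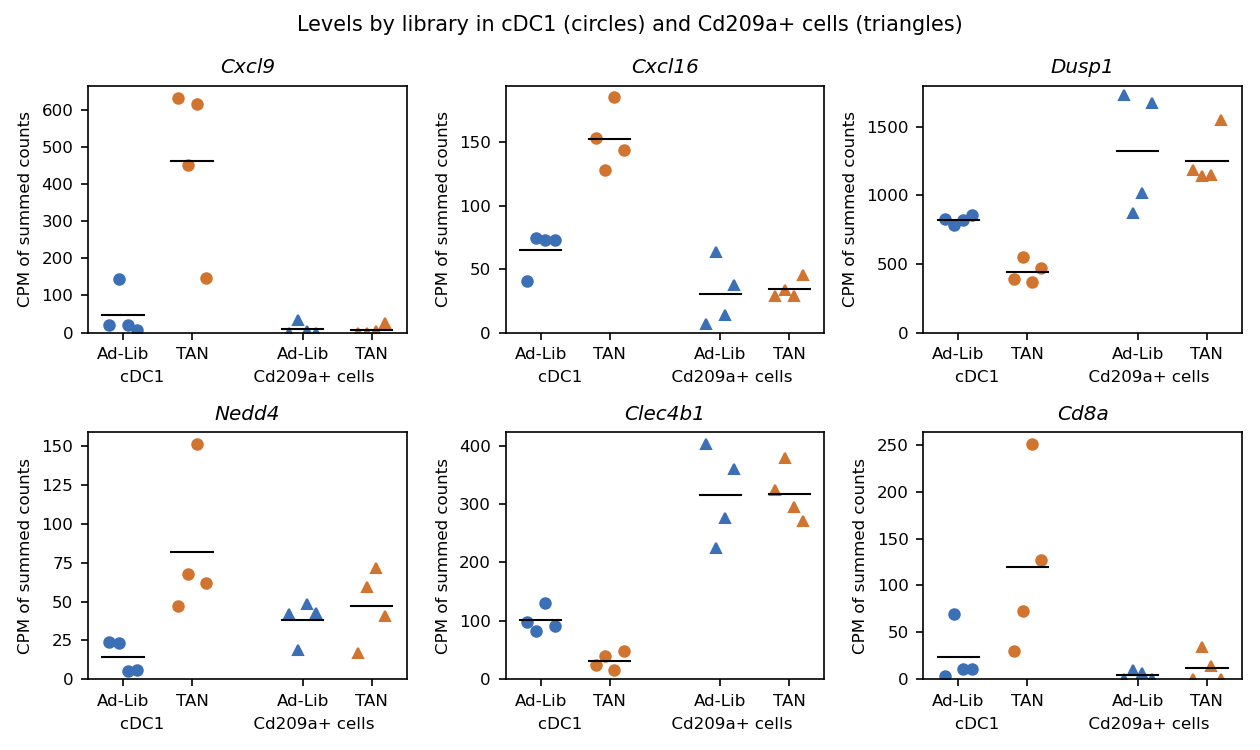
CPM of summed counts (y axis) of Cxcl9, Cxcl16, Dusp1, Nedd4, Clec4b1 and Cd8a in each library, for cDC1 (circles) and Cd209a+ cells (triangles) under Ad-Lib (blue) and TAN (orange), with group means as lines. In cDC1 the 4 TAN libraries lie above the Ad-Lib libraries for Cxcl9, Cxcl16 and Nedd4 and below them for Dusp1 and Clec4b1, and the Cd209a+ libraries of the groups overlap for all 6 genes.

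The interferon-induced genes that could be tested had positive changes under TAN, most of them short of the threshold. Of the 19 genes of the list, 5 passed the filter on low counts. All 5 had a positive change (median 1.45) and 1, Cxcl9, was called. A gene can pass that filter through the libraries of 1 group alone, so these signs are given as values and not as evidence. Ifitm3 (1.45, SE 0.59), Irf7 (1.45, SE 0.63) and Bst2 (0.82, SE 0.41) were not called, with edgeR adjusted p from 0.552 to 0.629. Their libraries overlapped between groups for each of these genes. The summed level of the list was 498, 837, 602 and 479 CPM in Ad-Lib 1, 3, 5 and 7 and 3486, 1184, 1400.5 and 899.7 CPM in TAN 2, 4, 6 and 8, without overlap. Without Cxcl9 it was 478, 693, 581 and 474 CPM and 2854, 732, 786 and 752 CPM. TAN 2, a library of 12 cDC1, stood far above the others, with 591 CPM of Isg15 against 1.87 to 27.5 CPM in the other 7 libraries. In Cd209a+ cells the list was at 2036 to 2817 CPM and 1507 to 2995 CPM, and over all other cells at 2030.2 to 2317 CPM and 1536 to 2104 CPM.

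Immediate early genes had mostly negative changes. Of 14 tested, 11 had a negative change and 1, Dusp1, was called, with a median of -0.21. Their summed level was 10751 to 11768 CPM in Ad-Lib and 7804 to 10666 CPM in TAN cDC1. In all other cells it was 18455 to 26884 CPM and 10028 to 17536 CPM, again lower under TAN without overlap. In Cd209a+ cells it was 13911 to 19435 CPM and 15286 to 20968 CPM, which overlap and are not lower. Of 5 glucocorticoid-responsive genes, 4 were negative with a median of -0.55, and Dusp1 was called. That list summed to 1225 to 1455 CPM in Ad-Lib libraries and 632 to 915 CPM in TAN libraries in cDC1, to 2137 to 3163 and 1184 to 2061 CPM in all other cells, both without overlap, and to 1222 to 2187 and 1426 to 1897 CPM in Cd209a+ cells, with overlap. Tsc22d3, which encodes the steroid-induced protein GILZ, was at 146 to 209 CPM in Ad-Lib and 71.1 to 130 CPM in TAN (-0.76, SE 0.22, edgeR adjusted p = 0.318).

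The genes that define cDC1 and their antigen presentation had no call under TAN. Of 17 identity genes 0 were called, with a median of 0.0033. Irf8 was at 1494 to 2007 CPM in Ad-Lib and 1229 to 2093 CPM in TAN libraries. Of 13 class II genes, 12 were positive with a median of 0.22, and of 16 class I genes, 12 were positive with a median of 0.12, with 0 called in either list. B2m was at 556, 711, 634 and 570 CPM and 815, 774, 951 and 927 CPM, without overlap, at an edgeR adjusted p of 0.226. All 12 tested genes of the mitochondrial genome were positive, with a median of 0.23 and 0 called. Their summed level was 16504 to 18445 CPM in Ad-Lib and 16059 to 24130 CPM in TAN cDC1, with overlap. It was higher under TAN without overlap in Cd209a+ cells (12338 to 16278 against 17432 to 21653 CPM) and in all other cells (18350 to 24451 against 26338 to 33577 CPM). Of the core clock genes, 0 of 16 passed the filter on low counts.

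Proliferation was measured by the summed level of 21 cell cycle genes. The part of Hmgb2 alone ran from 247 of 738 UMIs (Ad-Lib 3) to 134 of 218 (TAN 8) in cDC1. In Cd209a+ cells it ran from 60 of 262 (Ad-Lib 7) to 48 of 99 (Ad-Lib 3). The sum without Hmgb2 was not tested. The summed level in cDC1 was at 1227, 1895, 2241 and 1776 CPM in Ad-Lib 1, 3, 5 and 7 and at 2109, 2136, 459 and 749 CPM in TAN 2, 4, 6 and 8. TAN 6 and TAN 8 were the lowest, TAN 2 and TAN 4 lay within the Ad-Lib range, and the groups overlapped. The mean log2 level was 10.77 ± 0.37 in Ad-Lib and 10.13 ± 1.11 in TAN (SD, n = 4 each), a difference of -0.64 (two-sided exact permutation p = 0.371, adjusted 0.457). Leaving out the 4 members with 10 or more T cell UMIs brought the difference to -0.05 (exact permutation p = 0.943), and among members with 3 or more Xcr1 and Clec9a UMIs, where Ad-Lib 5 dropped out, it was -1.37 (exact permutation p = 0.114). Without the B-cell-rich libraries it was 0.31, with TAN 2 as the only TAN library.

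Against Cd209a+ cells of the same libraries, the cell cycle level of cDC1 was higher in 6 of 8 libraries. The mean log2 levels were 10.45 and 9.46, and the difference was 0.99 ± 1.49 (SD, n = 8; two-sided exact sign-flip permutation p = 0.125, adjusted 0.286). Without TAN 6 it was 1.39 (exact sign-flip permutation p = 0.0313), among members with 3 or more Xcr1 and Clec9a UMIs, with Ad-Lib 5 dropped for having 8 of them, 0.55 (p = 0.4375 by the same exact test) and without the 4 members with 10 or more T cell UMIs 0.69 (p = 0.3125). Of 18 cell cycle genes tested one by one, 5 were called higher in cDC1, namely Hmgb2 (1.45, SE 0.26), Ube2c (1.83, SE 0.56), Birc5 (1.28, SE 0.47), Cenpf (1.89, SE 0.55) and Ccnb2 (2.59, SE 0.60), and 0 lower. Mki67 (0.46, SE 0.41) and Top2a (0.09, SE 0.53) were not called. A UMI of either was found in 35 of 177 cDC1 (19.8%) and 23 of 180 Cd209a+ cells (12.8%). After thinning each cell to 2000 UMIs, which left out 5 cDC1 and 3 Cd209a+ cells, a mean of 19.3% of cDC1 and 11.3% of Cd209a+ cells held 2 or more cell cycle genes, against 67.5% and 51.9% unthinned.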

How the data were processed

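Per the labels and file headers, the authors mapped 10x 3' v3 reads to mm10 (GRCm38) with Cell Ranger and deposited filtered matrices of UMI counts per gene and cell. The submitters' notes name version 3.0.2 and the files version 6.0.1. The counts were not normalized, and no library was left out. Members and lists were chosen with earlier results of these data known. Cells were filtered and chosen as stated in the report, doublets were scored by simulation but kept, and counts were summed per library and type, with at least 10 cells each. Levels are CPM of those sums. Summed counts were tested with edgeR 4.0.16 in R 4.3.3 (TMM, filterByExpr, quasi-likelihood, Benjamini-Hochberg) and, as an alternative, DESeq2 1.42.0. The test was checked on simulated counts. Single values were tested by exact permutation over the 70 assignments of 8 libraries (smallest p 0.0286) or 256 sign flips of 8 pairs (smallest p 0.0078). The study speaks both of 4 mice per group and of 4 samples in all, and no label ties a library to a mouse, so p-values measure only the spread between these libraries, which may be technical. Genes named for each type comparison are the 10 called genes per direction with the smallest adjusted p, and for feeding the called genes plus the 5 smallest unadjusted p, besides called and abundant genes of 26 lists. A gene's coordinates come from GENCODE M21 by gene ID. Cell filters were run in Python 3.11.15 with numpy 2.4.6 and scipy 1.17.1. Alternatives changed the gate, the C1q and mitochondrial limits, doublets, normalization, the low-count filter, the cell minimum and each library in turn. Values of a few single genes are not reported here.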

Additional observations from a re-analysis of the deposited data

Results flagged for a closer look

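A sample was looked at again when its gap to the nearest of the other libraries in its group was large against the group's whole range (Dixon's 95% value for 4 samples). Of 26 groups so tested 3 were marked, and chance alone marks about 1 in 20. Cxcl16 in Ad-Lib 1 was 40.7 CPM, below the 73.3 to 74.5 CPM of the other Ad-Lib libraries. Cxcl9 in Ad-Lib 3 was 144 CPM, above the 5.64 to 20.9 CPM of the others. Cd8a in Ad-Lib 3 was 69.3 CPM, above 3.39 to 11.3 CPM. Ad-Lib 3 is the B-cell-rich library of the Ad-Lib group. Without it, Cxcl9 gave a log2 change of 4.86 (edgeR adjusted p = 0.00115) in place of 3.04.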

How the results depend on the processing

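No paired analysis was possible because the 2 feeding groups share no replicate number. Without the 4 B-cell-rich libraries, a choice made after seeing the data that leaves 1 TAN library, 3 directions turned: the cDC1 share (-0.0997 percentage points), the share of cDC1 plus Cd209a+ cells (-2.65) and the cell cycle level (0.31). Leaving out libraries in turn gave 0.0259 to 0.181, 11.53 to 22.4 (past the threshold without TAN 2) and -0.96 to -0.22 for these, and 0.75 to 1.39 for the cell cycle difference between types, past the threshold without TAN 6. The count of feeding calls, 3 as reported, ran from 0 to 11 when libraries were left out in turn: 0 without Ad-Lib 1, Ad-Lib 5, Ad-Lib 7 or TAN 6, 2 without TAN 8, 7 without TAN 2, 9 without TAN 4 and 11 without Ad-Lib 3. It was 0 with 1 or more Xcr1 and Clec9a UMIs, with no C1q UMI allowed (where Ad-Lib 5, with 9 members, also dropped out), with at least 20 cells and with the B cell share as a covariate, 55 with no filter on low counts, 42 without the B-cell-rich libraries and 4 with DESeq2. The calls against Cd209a+ cells were 1326 with no minimum fold and 991 with no filter, against 657 as reported, and those against Ccr7+ Fscn1+ cells stayed within 1.5 times. The interaction called 1 gene with 1 or more Xcr1 and Clec9a UMIs, 21 with no filter, 3 without the B-cell-rich libraries and 4 in them alone. The cause was not tested. Of the 10 called genes per direction named by smallest adjusted p in each type comparison, Tyrobp lost its call at 1 or more Xcr1 and Clec9a UMIs (-0.92), and none changed direction under the alternatives run. The interaction with at least 20 cells, and the Ccr7+ Fscn1+ comparison without the B-cell-rich libraries, were not run. With 11 to 42 cDC1 per library, shares carry the counting intervals given in the report.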

Other observations

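Cd207, which encodes the lectin langerin found on some cDC1, had a UMI in 4 of 76 Ad-Lib members and 19 of 101 TAN members, and 15 of the 19 were in TAN 6. Il12b, a subunit of interleukin-12, had a UMI in 6 and 9 members, 15 in all, at 0 to 66.8 CPM per library, and in 0% of Cd209a+ cells. Of the 44 members with a Cxcl9 UMI, 13 also had an Itgae UMI, 12 a Treml4 UMI and 7 an Il12b UMI. Over all 177 members these genes had a UMI in 23, 52 and 15 cells. Among cells with a Ptprc UMI (the pan-leukocyte gene) and no Cd3e or Cd79a UMI, cDC1 averaged 2.43% ± 0.715 over the Ad-Lib libraries and 3.23% ± 0.643 over the TAN libraries (SD, 4 of each), a difference of 0.797 percentage points (two-sided exact permutation p = 0.0857, not adjusted). With that denominator the B-cell-rich libraries held 3.42% to 3.56% and the others 1.71% to 2.36%, without overlap.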
